A study of Rattus norvegicus with 24 samples.

Results

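The comparison set 6 quadriceps libraries of rats that had trained on a treadmill and then run to exhaustion against 6 libraries of rats that had not trained, 12 of the 24 RNA-seq libraries of the series. Libraries were placed in the 2 groups by their labels alone, and every gene that passed a filter on mean expression was tested. The comparison and the gene lists were chosen with earlier results of these data known. All rats were Sprague-Dawley rats of both sexes, 6 weeks old when obtained, and all were accustomed to the treadmill for 3 days; the labels give no sex for a single library. The control (blank) rats then received no training. The treadmill rats ran for 20 min a day on 5 days a week over 7 weeks, with the belt speed raised from 15 to 35 m/min, and the final session was continued to exhaustion, after which the quadriceps was removed. The remaining 12 libraries came from rats that were trained in the same way and also had catgut embedded at acupoints under one of a pair of schemes; their values are given only beside those of the treadmill group. Training and the exhausting run were applied together, so the comparison cannot separate a lasting effect of training from the response to the last bout. By the study's methods, rats that left the running area met an electrified part of the treadmill. The comparison cannot tell a response to that stimulus apart from a response to running. Each group held 6 rats and 1 library was made per rat by the study's methods, so p-values measure the spread between these libraries.

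The quadriceps of the rat is a mostly fast-twitch muscle. When muscle fibres contract hard, calcium, stretch and stress kinases switch on immediate-early genes, which need no new protein to be transcribed and whose RNA decays quickly; many of them encode transcription factors of the EGR, FOS/JUN and NR4A families. Well described promoter elements of such genes are the CArG box, bound by serum response factor, and the cAMP response element (CRE), bound by CREB. Heat shock genes carry heat shock elements bound by HSF1. Endurance training is known for slower adjustments of mitochondria, fat use, capillaries and slow-fibre proteins.

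Total counts were 61682752 to 78278080 in the control libraries and 57292580 to 68040154 in the treadmill libraries. No 2 libraries held the same values. The commonest counts above 0 in the table were 4 and 8, so 1 sequenced fragment was taken to be worth about 4 and the detection limit of a gene in a library was set at 12 counts, or 3 fragments. Other small counts, such as 1 and 5, also occur, so this limit and the lower bounds of fold that rest on it are approximate. The tissue label was borne out by skeletal muscle markers, whose FPKM (fragments scaled by transcript length and library depth) summed to 69190.9 to 85046.5 in control and 77940.7 to 93552.2 in treadmill libraries; none of the 10 tested was a DEG. The libraries lowest in their correlation with the rest of their group were control 4 (median correlation 0.963 across genes) and treadmill 2 (0.966). Control 2 and treadmill 3 stood apart through liver transcripts: the summed liver markers reached 309 and 462 FPKM there and lay at 12.7 to 60.7 FPKM in the other 10 libraries.

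Of 14772 genes tested, 8 passed an adjusted p under 0.05 by edgeR's quasi-likelihood test with Benjamini-Hochberg adjustment, or 0.0542% of them; 6 were higher (0.0406%) and 2 lower (0.0135%) in the treadmill group. A differentially expressed gene (DEG) was one whose ratio of group mean FPKM was above 1.5, or below the reciprocal of 1.5, with an unadjusted p under 0.05. By that looser rule 2.85% of the genes tested were DEGs, 1.77% higher and 1.08% lower. In 48 genes (0.325%) every treadmill library lay above every control library, and in 18 genes (0.122%) below. The median log2 fold change over all genes tested was -0.002, so the distribution as a whole was centred near 0.

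The clearest pattern was in the immediate-early genes, whose lists were chosen with earlier results of these data known. Of 22 immediate-early transcription factors tested, 18 were higher DEGs and none was lower, with a median log2 fold change of 1.58; 1 of the 18, Egr3, passed the adjusted test. Of 22 other immediate-early genes, 13 were higher DEGs, with a median of 0.91, and Arc and Ier2 passed the adjusted test. The promoters of genes in these lists are shown first, because the CArG box and the CRE are the elements by which such genes are best known. Sequences run from 250 bases before to 50 bases after the annotated start, on the gene's strand, and come from RefSeq on the GRCr8 assembly, which is a different source of coordinates from the deposited table. Capitals mark the CArG boxes (CC, then 6 bases each A or T, then GG), read on both strands.

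Egr1, chr18:26736828-26737127, + strand: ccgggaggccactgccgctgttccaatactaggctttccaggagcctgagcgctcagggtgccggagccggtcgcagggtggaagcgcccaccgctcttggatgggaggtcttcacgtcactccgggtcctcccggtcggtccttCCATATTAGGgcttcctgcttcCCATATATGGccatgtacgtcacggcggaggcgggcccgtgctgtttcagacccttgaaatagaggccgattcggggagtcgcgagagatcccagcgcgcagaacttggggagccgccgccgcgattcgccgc
Egr2, chr20:21054392-21054691, - strand: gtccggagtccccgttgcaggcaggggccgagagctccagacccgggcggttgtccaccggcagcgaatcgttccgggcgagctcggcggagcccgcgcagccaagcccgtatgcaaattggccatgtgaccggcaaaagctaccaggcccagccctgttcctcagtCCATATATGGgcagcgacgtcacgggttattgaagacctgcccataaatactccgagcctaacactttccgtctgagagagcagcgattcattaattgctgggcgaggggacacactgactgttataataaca
Srf, chr9:21923826-21924125, + strand: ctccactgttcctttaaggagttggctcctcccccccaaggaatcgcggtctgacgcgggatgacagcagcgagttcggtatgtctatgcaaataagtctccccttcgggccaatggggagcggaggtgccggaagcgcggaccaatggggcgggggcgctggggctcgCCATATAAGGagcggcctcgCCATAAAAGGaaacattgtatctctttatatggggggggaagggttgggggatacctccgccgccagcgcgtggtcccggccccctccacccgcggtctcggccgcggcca
Zfp36, chr1:92799059-92799358, - strand: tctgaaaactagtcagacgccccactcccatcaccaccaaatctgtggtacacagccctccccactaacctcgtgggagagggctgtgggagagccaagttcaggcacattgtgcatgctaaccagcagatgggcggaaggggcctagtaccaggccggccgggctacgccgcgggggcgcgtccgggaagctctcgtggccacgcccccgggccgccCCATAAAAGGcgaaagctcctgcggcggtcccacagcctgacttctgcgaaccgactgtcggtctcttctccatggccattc

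Egr1 and Srf each held 2 CArG boxes in this window, and Egr2 and Zfp36 held 1 each. In the next pair the capitals mark the CRE, TGACGTCA, which reads the same on both strands and contains the shorter TGACG.

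Ier2, chr19:40399123-40399422, + strand: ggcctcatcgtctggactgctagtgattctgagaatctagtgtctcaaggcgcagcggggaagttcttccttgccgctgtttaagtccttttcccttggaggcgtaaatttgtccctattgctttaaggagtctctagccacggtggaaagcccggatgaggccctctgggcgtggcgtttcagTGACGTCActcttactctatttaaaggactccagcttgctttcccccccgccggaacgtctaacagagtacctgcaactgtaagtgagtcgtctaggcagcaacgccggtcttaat
Btg2, chr13:48087641-48087940, - strand: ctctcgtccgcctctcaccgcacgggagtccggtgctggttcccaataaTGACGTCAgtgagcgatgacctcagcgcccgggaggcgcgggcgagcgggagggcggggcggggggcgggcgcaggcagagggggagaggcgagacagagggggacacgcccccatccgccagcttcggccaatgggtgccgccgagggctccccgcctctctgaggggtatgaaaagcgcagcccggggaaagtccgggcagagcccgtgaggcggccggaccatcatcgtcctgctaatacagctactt

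Promoters were found for 14 of the 23 listed immediate-early transcription factors. A CArG box was present in 4 of the 14 (28.6%), those of Egr1, Egr2, Klf6 and Srf, and in 1.64% of all 33469 rat promoters of the same length. The TGACG letters were present in 10 of the 14 (71.4%) and in 21.2% of all promoters, and the complete CRE in 2 of the 14 (14.3%) and in 1.83% of all. For 20 of the 22 other immediate-early genes 22 promoters were found, since some genes have more than 1, and of these 5 held a CRE (22.7%; Btg2, Ier2, Plk2, Ppp1r15a and Rcan1) and 2 a CArG box (9.09%). The TGACG letters were also in 13 of 26 promoters of the heat shock list (50%). Of 5 promoters found for genes that passed the adjusted test, 0 held a CArG box and 1, that of Ier2, a CRE. Some holders of a CArG box or CRE, such as Egr1 and Btg2, were higher DEGs. Others, such as Srf, Plk2 and Rcan1, were not DEGs. These matches describe letters in a window and do not show binding, and their link to expression was not tested. Arc, Egr3, Fos and Jun were among the members without an entry.

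Egr3, a zinc-finger factor of the EGR family that is also needed for muscle spindle development, had 0.0533 to 0.483 FPKM (median 0.327) in the control libraries and 1.72 to 5.57 FPKM (median 2.85) in the treadmill libraries. The lowest treadmill library was above the highest control library. Egr3 rose 10.4-fold (log2 fold change 3.38, SE 0.44, adjusted p = 0.0164 by edgeR). Its relative Egr1 had 2.31 to 20.4 FPKM (median 9.41) in control and 38.2 to 111 FPKM (median 56.8) in treadmill libraries, again without overlap. The log2 fold change of Egr1 was 2.76 (SE 0.48) and its adjusted p was 0.112 by edgeR, so it was a higher DEG that missed the adjusted threshold. Egr2 was a higher DEG too (2.42), but its groups overlapped.

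Members of the AP-1 complex, the dimers of FOS and JUN proteins, differed less evenly. Junb had 8.31 to 28.4 FPKM (median 19.9) in control and 27.7 to 153 FPKM (median 61.6) in treadmill libraries, with a log2 fold change of 1.96 (SE 0.35). Treadmill 3 alone, at 27.7 FPKM, lay inside the control range. Fos was at 121 FPKM in control 2 and at 3.70 to 33.8 FPKM in the other control libraries, against 36.7 to 190 FPKM (median 86.9) in treadmill libraries. Its log2 fold change was 1.57 (SE 0.70), and its groups overlapped widely because of control 2. Fosb, with 0.265 to 2.78 FPKM in control and 1.47 to 26.6 FPKM in treadmill libraries, had 3.05 (SE 0.71). Fosl2 (1.67), Jun (0.76) and Jund (0.68) were also higher DEGs by log2 fold change, while Fosl1 had 0.56 and did not pass.

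The NR4A orphan nuclear receptors, which respond to contraction and adrenergic signals in muscle, were all higher DEGs. Nr4a2 had 0.266 to 2.35 FPKM (median 0.327) in control and 1.3 to 17.6 FPKM (median 4.92) in treadmill libraries, with a log2 fold change of 3.26 (SE 0.74). Control 2 held the 2.35, inside the treadmill range, and the next control library was at 0.626. Nr4a3 had a log2 fold change of 2.99 (SE 1.13) and Nr4a1, the most abundant of the family, 1.18 (SE 0.34). The stress factor Atf3 (2.07) and the Krüppel-like factors Klf2 (1.60), Klf4 (1.59) and Klf6 (1.14) were higher DEGs as well, as were Csrnp1 (1.42) and Maff (1.11). Klf2 and Klf4 are known as flow-responsive genes of endothelium, so the whole-muscle values do not say which cells carried them. In bulk tissue a change in the number of cells of a type and a change in RNA per cell cannot be told apart.

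Of this list, Srf, which encodes serum response factor itself, Fosl1, Myc and Klf10 did not reach the DEG criterion. For Srf the level was 14.7 to 17.0 FPKM (median 15.7) in control and 17.4 to 23.3 FPKM (median 19.5) in treadmill libraries. The groups did not overlap, though the difference was only 0.35 on the log2 scale (SE 0.07; adjusted p = 0.197 by edgeR). Klf10 was level, with a log2 fold change of -0.00 (SE 0.17). Egr4 fell below the expression filter. Every treadmill library lay above every control library in 3 of the 22 transcription factors, Egr3, Egr1 and Srf.

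Arc, an activity-regulated gene best known from neurons, had 0.639 to 2.14 FPKM (median 1.48) in control and 4.76 to 25.0 FPKM (median 13.7) in treadmill libraries. The groups were separate, and Arc rose 10.3-fold (log2 fold change 3.36, SE 0.42, adjusted p = 0.0126 by edgeR). Ier2, a nuclear immediate-early protein, had 8.66 to 29.3 FPKM (median 17.2) in control and 43.2 to 60.6 FPKM (median 54.4) in treadmill libraries. It rose 2.97-fold (log2 fold change 1.57, SE 0.24, adjusted p = 0.0439 by edgeR), and its treadmill values were the more uniform relative to their mean, 52.2 ± 7.18 against 17.9 ± 7.02 FPKM (SD, n = 6).

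Genes that end signals or shorten the life of messages were among the other higher DEGs of this list. Zfp36 encodes tristetraprolin, which marks AU-rich mRNAs, many of cytokines, for decay. It had 19.8 to 54.4 FPKM (median 38.9) in control and 55.3 to 86.1 FPKM (median 76.8) in treadmill libraries, with a log2 fold change of 1.11 (SE 0.20). The antiproliferative gene Btg2 stood at 50.5 FPKM in control 2, at 13.5 to 20.8 FPKM in the other control libraries and at 40.5 to 112 FPKM in treadmill libraries, a log2 fold change of 1.66. Rgs2, which shortens signalling by Gq-coupled receptors, had a log2 fold change of 1.93, the salt-inducible kinase Sik1 2.21, the glucocorticoid- and serum-responsive kinase Sgk1 1.22 and the polo-like kinase Plk3 2.00. Outside the list, Apold1, an immediate-early gene of endothelium, had 5.33 to 17.2 FPKM in control and 27.1 to 91.4 FPKM in treadmill libraries (2.19, SE 0.40), and Mc5r, a melanocortin receptor, had a log2 fold change of 1.49 (SE 0.28), both without overlap. In 6 of the 22 listed genes, Arc, Ier2, Rgs2, Zfp36, Sik1 and Plk3, the groups did not overlap.

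Of 12 feedback inhibitors of growth factor and MAP kinase signals, 5 were higher DEGs and 1 of these passed the adjusted test. Spry4, a sprouty protein that damps receptor tyrosine kinase signalling, had 1.34 to 2.29 FPKM (median 1.70) in control and 2.80 to 7.76 FPKM (median 3.85) in treadmill libraries. It rose 2.69-fold (log2 fold change 1.43, SE 0.22, adjusted p = 0.0439 by edgeR). The list held sprouty genes and dual-specificity phosphatases, which switch MAP kinases off, and 11 of the 12 had positive values, with a median of 0.30. The remaining member, Dusp16, was at -0.41, with an unadjusted p of 0.0106 by edgeR's quasi-likelihood test. The list had 3 higher DEGs without treadmill 2. With all libraries the 5 were Spry4, Dusp5 (1.59), Dusp1 (1.13), Dusp4 (0.86) and Dusp10 (0.73); Dusp5, like Spry4, did not overlap between the groups.

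Ccn1, a secreted matricellular protein induced by stretch and by YAP and SRF activity, had the smallest p of all genes. Its level was 22.6 to 48.2 FPKM (median 33.6) in control and 89.1 to 205 FPKM (median 111) in treadmill libraries. The groups lay far apart, and Ccn1 rose 3.64-fold (log2 fold change 1.86, SE 0.22, adjusted p = 0.0126 by edgeR). It was the only DEG among 18 genes tested of mechanical load and sarcomere stress, whose median was 0.33. The list had 6 higher DEGs without control 2 and 3 without control 2 and treadmill 3.

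**Figure D1:**
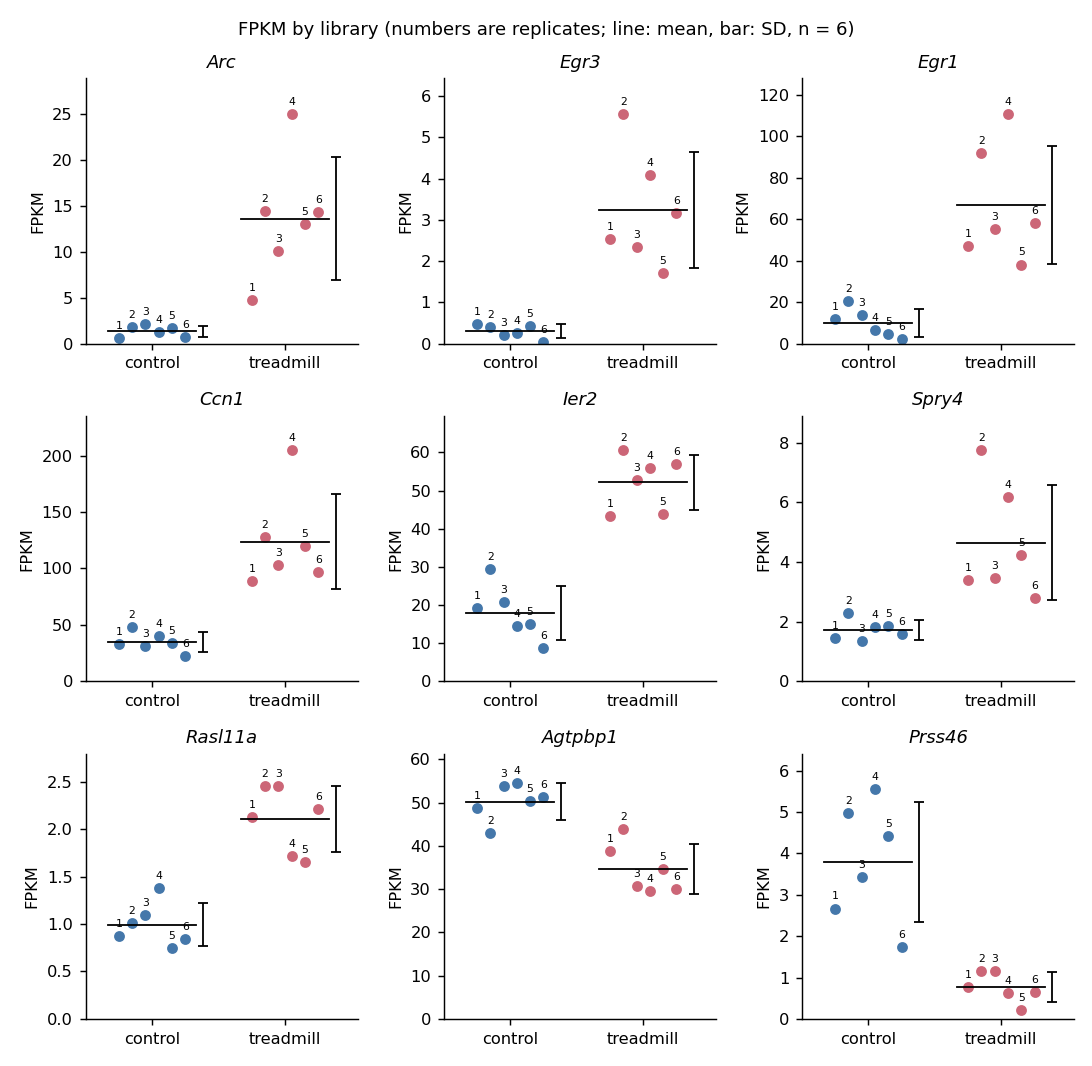
FPKM in each of the 12 libraries for 9 genes, with the replicate number beside each point, a line at the group mean and a bar for the SD (n = 6). In every panel except that of Agtpbp1 the treadmill points lie wholly above or wholly below the control points.

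Of the other genes that passed the adjusted test, Rasl11a is a small RAS-like GTPase, and it had 0.750 to 1.38 FPKM (median 0.940) in control and 1.66 to 2.46 FPKM (median 2.17) in treadmill libraries. It rose 2.18-fold (log2 fold change 1.13, SE 0.17, adjusted p = 0.0439 by edgeR). Agtpbp1 encodes a deglutamylase that trims the tails of tubulin, and it had 42.9 to 54.5 FPKM (median 50.7) in control and 29.6 to 43.8 FPKM (median 32.7) in treadmill libraries. Only treadmill 2, at 43.8 FPKM, reached the control range. Agtpbp1 fell by 0.52 on the log2 scale (SE 0.08, adjusted p = 0.0439 by edgeR), a change too small to meet the ratio of a DEG. The last was AABR07055792, an uncharacterised gene at chromosome 7, 10091340 to 10092277, + strand, in the table's own coordinates (build not given in the sources used here). It had 14 to 51 counts in control libraries and 1 to 4 in treadmill libraries, all of the latter under the detection limit, which put it at least 2.26-fold lower than in control (edgeR, adjusted p = 0.0126).

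For 7 of these 8 genes the exact two-sided permutation test over the 12 libraries gave p = 0.00216, the smallest that the possible arrangements allow, and for Agtpbp1 the exact permutation p was 0.00433. When each library was left out in turn, Ccn1 and Arc kept an adjusted p under 0.05 in 11 of 12 fits, AABR07055792 in 10, Egr3 in 8, Spry4 in 3, Ier2 in 2, Agtpbp1 in 1 and Rasl11a in 0. Without control 4 no gene passed by edgeR, with Ccn1 and Arc then at an adjusted p of 0.0563 and 0.0583; 637 genes were higher and 608 lower at an unadjusted p under 0.05 in that fit. With all 12 libraries DESeq2 put 113 genes past an adjusted p of 0.05, all 8 among them. Over those 12 fits the number of higher DEGs among the immediate-early transcription factors was 15 to 18, and among the other immediate-early genes 13 to 15.

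**Figure D2:**
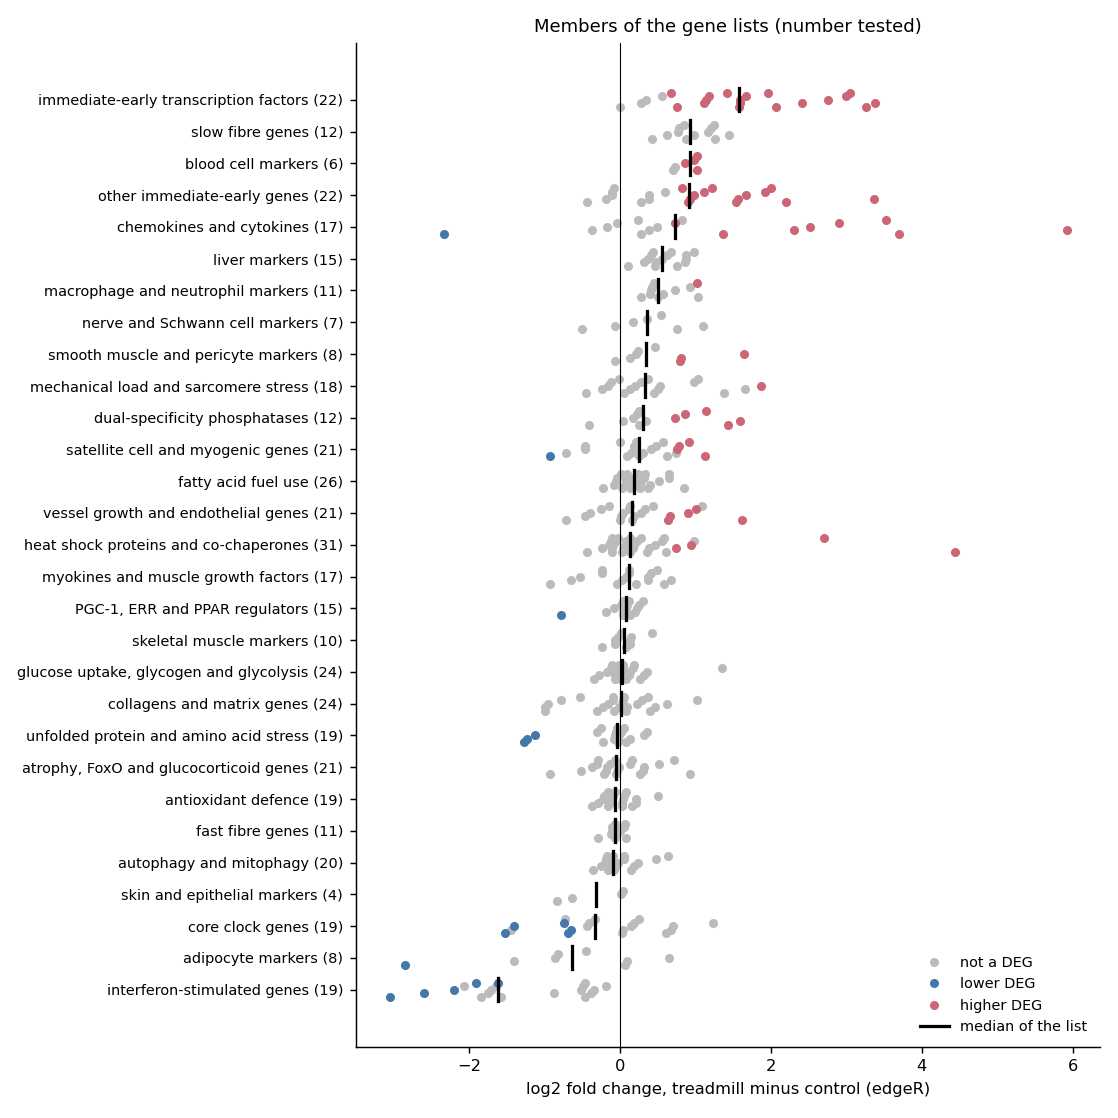
Log2 fold change (treadmill minus control, edgeR) of each tested member of the gene lists, 1 point per gene, coloured by whether it was a higher DEG, a lower DEG or neither, with a black bar at the list's median and the number tested in brackets. The immediate-early transcription factors have the highest median (1.58) and the interferon-stimulated genes the lowest (-1.61).

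Heat shock genes differed in part, and very unevenly among the treadmill libraries. Hspa1b, the inducible HSP70 chaperone, had 7.34 to 21.1 FPKM (median 13.9) in control libraries and 13.2, 273, 75.2, 1051, 218 and 121 FPKM in treadmill libraries 1 to 6. Treadmill 1 lay within the control range and treadmill 4 far above the rest. The log2 fold change was 4.44 (SE 0.86, adjusted p = 0.161 by edgeR) and 3.33 without treadmill 4. A near-identical HSP70 copy listed as LOC108348108 was also a higher DEG, with 0.710 ± 1.5 FPKM in control and 115 ± 151 FPKM in treadmill libraries (SD, n = 6), so the division of reads between both copies is uncertain.

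Dnajb1, the HSP40 partner that hands clients to HSP70, had 4.19 to 7.62 FPKM in control libraries and 5.65, 50.3, 9.87, 120, 19.4 and 13.0 FPKM in treadmill libraries 1 to 6, so the same libraries 2 and 4 were highest. Its promoter is shown with the 2 matches to the core of the heat shock element, GAANNTTC, which reads the same on both strands, in capitals.

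Dnajb1, chr19:41431092-41431391, - strand: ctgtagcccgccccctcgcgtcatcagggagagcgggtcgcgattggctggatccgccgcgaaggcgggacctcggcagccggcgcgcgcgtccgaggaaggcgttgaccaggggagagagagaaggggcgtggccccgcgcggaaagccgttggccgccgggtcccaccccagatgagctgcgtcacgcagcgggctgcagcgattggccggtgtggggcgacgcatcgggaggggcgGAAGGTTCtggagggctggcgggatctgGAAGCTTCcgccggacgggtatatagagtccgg

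Of the 26 promoters found for the heat shock list, 12 held that core (46.2%), against 8.59% of all promoters. In expression, 4 of 31 listed genes were higher DEGs and none was lower: Hspa1b, Dnajb1 (2.70), the cytosolic HSP90 gene Hsp90aa1 (0.93) and the small heat shock gene Hspb6 (0.75). Hsp90aa1 was at 45.5 and 57.5 FPKM in treadmill 2 and 4 and at 10.8 to 13.9 FPKM in the other 4, inside the control range of 9.01 to 15.9 FPKM. The median of the list was 0.13. Leaving out each library in turn gave 3 to 8 higher DEGs, with 8 without control 2. The endoplasmic reticulum chaperone Hspa5 had a log2 fold change of -0.04.

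Genes for chemokines and cytokines gave 8 higher DEGs of 17 tested, with a median of 0.73, and 8 of the 25 listed were under the expression filter. The neutrophil attractant Cxcl1 had 0.457 to 2.70 FPKM (median 0.683) in control and 0.908 to 14.2 FPKM (median 3.18) in treadmill libraries, a log2 fold change of 2.31 (SE 0.62). The monocyte attractant Ccl2 had 0.180 to 1.23 FPKM in control libraries and 2.66, 22.4, 1.03, 3.82, 0.760 and 0.903 FPKM in treadmill libraries 1 to 6. Treadmill 3, 5 and 6 were thus inside the control range, and the log2 fold change of 2.52 (SE 0.79) became 1.19 without treadmill 2. Ccl7, a related chemokine, followed the same libraries, with 23.1 FPKM in treadmill 2 and 0.444 to 2.37 FPKM in the other 5.

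Cxcl2 and Il6, the interleukin secreted by working muscle, were at or under the detection limit in every control library. Cxcl2 had 0 to 246 counts in treadmill libraries and was at least 5.23-fold higher in the group mean. Treadmill 2, at 3.69 FPKM, stood far above the other treadmill libraries for Cxcl2. The Cxcl2 bound thus rested largely on treadmill 2 and does not hold for each treadmill library. Il6 had 0 to 119 counts and was at least 3.465-fold higher in the group mean. Socs3, the inhibitor of IL-6 type signalling, had 0.596 to 2.55 FPKM (median 1.13) in control and 1.65 to 4.95 FPKM (median 3.18) in treadmill libraries, with a log2 fold change of 1.37 (SE 0.35). Il1b (2.90) and Il4r (0.73) were the remaining higher DEGs of the list. Summed macrophage and neutrophil markers were 24.7 to 71.4 FPKM in control libraries, highest in control 4, and 21.3 to 120 FPKM in treadmill libraries, highest in treadmill 2; of 11 tested, all had positive values and S100a9 alone was a DEG (1.02). The part of such cells in the chemokine values was not tested. Leaving out each library gave 6 to 8 higher DEGs, and 6 of the same 8 genes were higher DEGs without control 4 and treadmill 2.

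**Figure D3:**
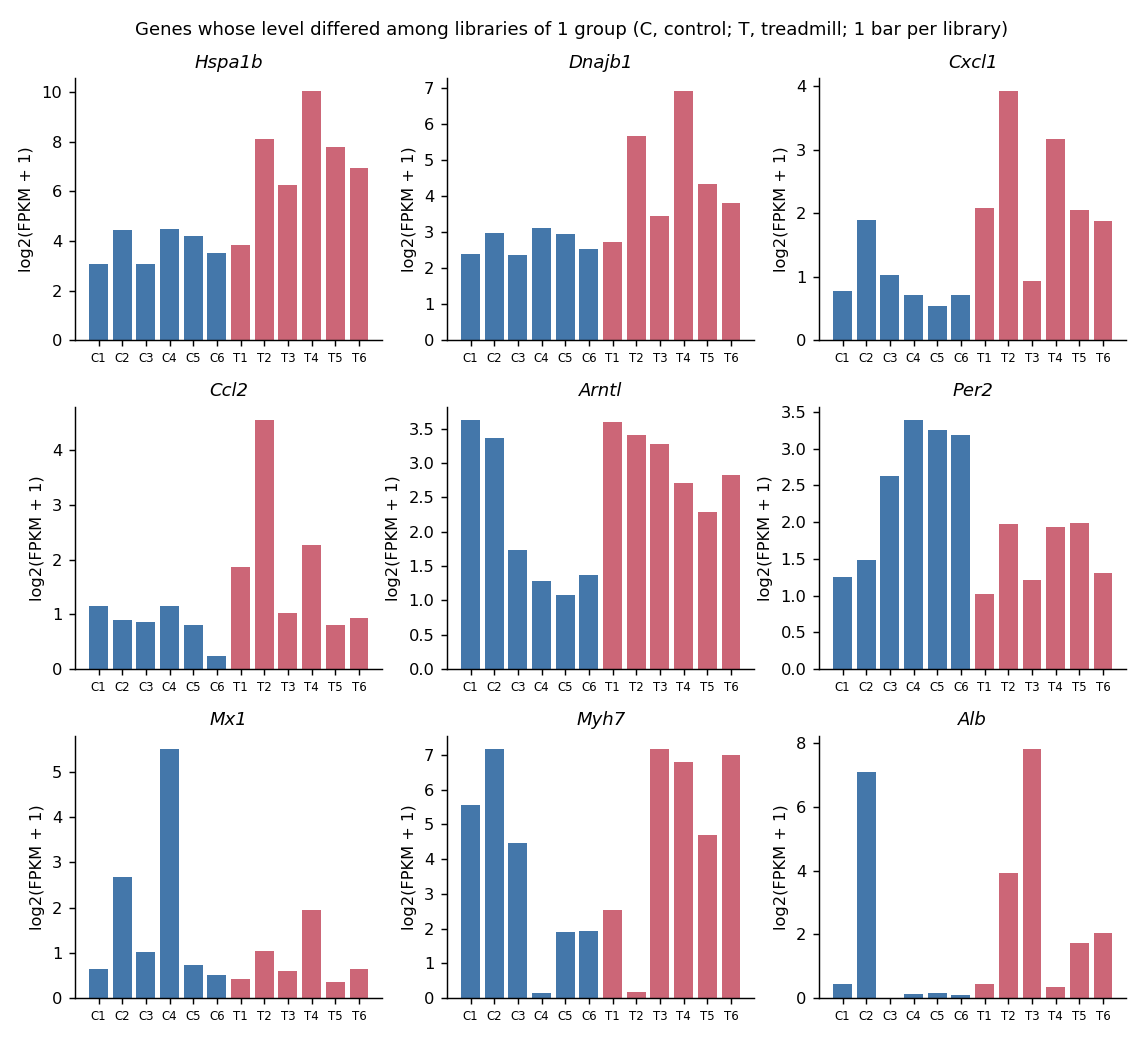
Level of 9 genes in each library as log2(FPKM + 1), 1 bar per library, control 1 to 6 in blue and treadmill 1 to 6 in red. Hspa1b and Dnajb1 peak in treadmill 4 (1051 and 120 FPKM), Ccl2 in treadmill 2 (22.4 FPKM), Mx1 in control 4 (44.7 FPKM) and Alb in control 2 and treadmill 3 (135 and 226 FPKM).

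Among vessel genes 5 of 21 tested were higher DEGs, with a median of 0.16. Kdr, the main VEGF receptor of endothelium, had 3.76 to 6.90 FPKM (median 5.17) in control and 6.24 to 11.4 FPKM (median 7.49) in treadmill libraries, a log2 fold change of 0.66 (SE 0.18). Its ligand Vegfa had 0.13 (SE 0.21) and the groups overlapped fully. The antiangiogenic matrix protein Thbs1 (1.61), the urokinase receptor Plaur (1.01), tissue factor F3 (0.90) and the protease Adamts1 (0.64) were the other higher DEGs. This count ranged from 2 without control 1 to 6 without control 4. Smooth muscle and pericyte markers moved beside it: Cnn1 (1.64), Acta2 (0.80) and Tagln (0.79) were higher DEGs of 8 tested, and Tagln had 22.8 to 42.9 FPKM in control and 31.0 to 83.0 FPKM in treadmill libraries. Blood cell markers did too, with 4 of 6 tested entries higher DEGs, and 2 without treadmill 4. The 4 were Hbb, Alas2 and Hba-a2, a symbol with more than 1 entry. Hbb, the beta globin, had 80.9 to 144 FPKM in control libraries and 103, 150, 321, 453, 108 and 226 FPKM in treadmill libraries 1 to 6. The summed blood markers were 314 to 579 FPKM in control and 450 to 1744 FPKM in treadmill libraries, and the share of blood or vessel wall in the vessel gene values was not tested.

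Genes of satellite cells, the muscle stem cells, and of myogenesis gave 4 higher DEGs and 1 lower DEG of 21 tested, with a median of 0.26. Cdh15, the M-cadherin that holds satellite cells to their fibre, had 3.31 to 6.65 FPKM (median 5.28) in control and 8.06 to 9.02 FPKM (median 8.27) in treadmill libraries. The treadmill values were tight and wholly above the control values, and edgeR gave a log2 difference of 0.76 (SE 0.18, adjusted p = 0.337). The Notch target Hes1 had 3.62 to 8.0 FPKM in control and 6.47 to 16.5 FPKM in treadmill libraries (1.13, SE 0.23). Heyl, another Notch target that vessel walls also express, had a log2 fold change of 0.78 and the satellite cell factor Pax7 0.91, both with overlapping groups. Megf10, a receptor of satellite cells, was the lower DEG (-0.93, SE 0.23), and the myogenic factors Myod1 (0.00), Myf5 (0.21) and Myog (0.18) did not pass.

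Core clock genes gave 5 lower DEGs of 19 tested and no higher one with all libraries. Lower DEGs numbered 2 without control 4 and 7 without control 2, and Arntl, Nfil3 and Npas2 were higher DEGs without control 1. Per2, a repressor of the clock, had 1.38, 1.79, 5.20, 9.51, 8.57 and 8.12 FPKM in control libraries 1 to 6 and 1.03 to 2.99 FPKM (median 2.15) in treadmill libraries. Controls 1 and 2 thus lay in the treadmill range and the other 4 above it. Its log2 fold change was -1.41 (SE 0.46). The clock output factor Dbp repeated this split, with 7.18 and 10.3 FPKM in controls 1 and 2 and 71.6 to 140 FPKM in the other 4, against 6.54 to 46.1 FPKM in treadmill libraries. Arntl (BMAL1), an activator that peaks when Per2 and Dbp are low, showed the opposite: 11.4 and 9.26 FPKM in controls 1 and 2, 1.11 to 2.32 FPKM in the other 4, and 3.88 to 11.0 FPKM in treadmill libraries. With all libraries Arntl was not a DEG (0.70, SE 0.58). The other lower DEGs were Tef (-0.70), Hlf (-0.75) and Nr1d2 (-0.65). The time of day at harvest is not given in the labels, and its part in these values was not tested. An E-box, CACGTG on both strands, the element bound by the clock activators, was in 5 of the 17 promoters found for 15 of the clock genes (29.4%) and in 6.42% of all.

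Ucp3, the mitochondrial uncoupling protein of muscle, and Pdk4, the kinase that turns pyruvate away from oxidation, both rise with fasting and fat use, and neither passed the test. Ucp3 had 286, 212, 69.5, 25.7, 16.4 and 42.2 FPKM in control libraries 1 to 6 and 89.0 to 231 FPKM (median 114) in treadmill libraries, a log2 fold change of 0.33 (SE 0.63). Pdk4 had 107 to 835 FPKM (median 389) in control and 186 to 681 FPKM (median 344) in treadmill libraries, or -0.06 (SE 0.47). Controls 1 and 2 were again the highest control libraries for both genes.

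The lists in this paragraph held few DEGs, as lists of 15 to 26 genes would at the share of 2.85% over all genes tested. Vessel genes are given above and slow fibre genes below. Ppargc1a, the coactivator of mitochondrial biogenesis, had 2.14 ± 0.347 FPKM in control and 2.22 ± 0.185 FPKM in treadmill libraries (SD, n = 6), a log2 fold change of 0.09 (SE 0.12). Among 15 regulators of the PGC-1, ERR and PPAR group 1 was a DEG, the corepressor Nrip1, which was lower (-0.78, SE 0.25). No DEG was found among 26 genes of fatty acid use (median 0.18, 22 positive), 24 of glucose uptake, glycogen and glycolysis (0.02), 21 of atrophy and FoxO signalling (-0.06), 17 myokines and growth factors (0.12), 24 collagens and matrix genes (0.01), 19 of antioxidant defence (-0.07) or 20 of autophagy (-0.09). At an unadjusted p under 0.05 by edgeR, 3 atrophy genes and 3 antioxidant genes were lower, 1 autophagy gene was higher and 2 lower, and no gene of the other 4 lists passed. Leaving out 1 library gave at most 2 DEGs in either direction in any of these 7 lists. Within the autophagy list Map1lc3a, which encodes an LC3 protein of the autophagosome, had 145 to 184 FPKM in control and 199 to 267 FPKM in treadmill libraries. Its groups did not overlap at a log2 fold change of 0.47 (SE 0.12), under the ratio of a DEG.

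All 12 slow fibre genes tested had positive values with a median of 0.93, and none was a DEG with all libraries; Atp2a2, Myh7b and Tpm3 were higher DEGs without control 2. Myh7, the slow myosin heavy chain, had 45.7, 144, 21.2, 0.0984, 2.71 and 2.83 FPKM in control libraries 1 to 6 and 4.77, 0.121, 143, 111, 24.8 and 128 FPKM in treadmill libraries 1 to 6. Both groups spanned nearly the same wide range, and the log2 fold change of 0.98 had an SE of 1.43. Tnni1, the slow troponin I, had 1.44 (SE 1.33). Among 11 fast fibre genes none was a DEG. Myh1, the fast IIx myosin heavy chain, had 2943 to 4121 FPKM in control and 2246 to 3182 FPKM in treadmill libraries (log2 fold change -0.30, SE 0.15), with an exact permutation p of 0.0216 and an adjusted p of 0.558 by edgeR. The IIa and IIb myosin genes Myh2 and Myh4, and Atp2a1, had no entry under those symbols in the deposited values. They were therefore not analysed here, and the 11 fast fibre genes lack them.

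Lower DEGs were spread over several functions. Prss46, a serine protease gene, had 1.74 to 5.56 FPKM (median 3.93) in control and 0.212 to 1.16 FPKM (median 0.709) in treadmill libraries, and the groups did not overlap (log2 fold change -2.28, SE 0.36, adjusted p = 0.0554 by edgeR). Fam133b was the other named lower DEG with separate groups (-0.64, SE 0.18). Esr1, the oestrogen receptor alpha, had 0.129 to 0.665 FPKM (median 0.207) in control and 0.0551 to 0.149 FPKM (median 0.0911) in treadmill libraries (-1.60, SE 0.43). Rhobtb1 (-0.98), Net1 (-0.60), the microtubule plus-end protein gene Clasp2 (-0.70), the phosphodiesterase gene Gpcpd1 (-0.60), the RNA polymerase I factor Taf1a (-0.61) and the zinc-finger gene Zfp503 (-1.12) also met the criterion. Phykpl was listed at 0 in 3 control libraries and at 2.36 to 2.75 FPKM in the other 3, against 0 in 5 treadmill libraries and 0.0477 FPKM in treadmill 3. It was at least 12.1-fold lower, with an exact permutation p of 0.182.

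In the list of unfolded protein and amino acid stress 3 of 19 genes tested were lower DEGs and none was higher, with a median of -0.04. Psat1 and Phgdh encode successive enzymes of serine synthesis. Psat1 had 0.143 to 0.774 FPKM (median 0.350) in control and 0.103 to 0.235 FPKM (median 0.153) in treadmill libraries (-1.27, SE 0.37). Phgdh had a log2 fold change of -1.23 (SE 0.50), and Ddit4, an inhibitor of mTORC1, had -1.13 (SE 0.47). All 3 genes had overlapping groups, and the list had 1 lower DEG without control 4.

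The low values of interferon-stimulated genes in the treadmill group rested on control 4. All 19 tested had negative values with a median of -1.61, and 5 were lower DEGs: Mx1, Mx2, Ifit1, Rsad2 and Gbp2. Mx1, an antiviral GTPase, was at 44.7 FPKM in control 4 and at 0.424 to 5.41 FPKM in the other control libraries, against 0.280 to 2.84 FPKM in treadmill libraries. Without control 4 its log2 fold change went from -3.05 to -0.81 and no member of the list was a DEG; without treadmill 4 there were 12. Cxcl10, an interferon-induced chemokine and the only lower DEG of the chemokine list, was at 9.82 FPKM in control 4 and at 0.0638 to 0.553 FPKM in the other control libraries.

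**Figure D4:**
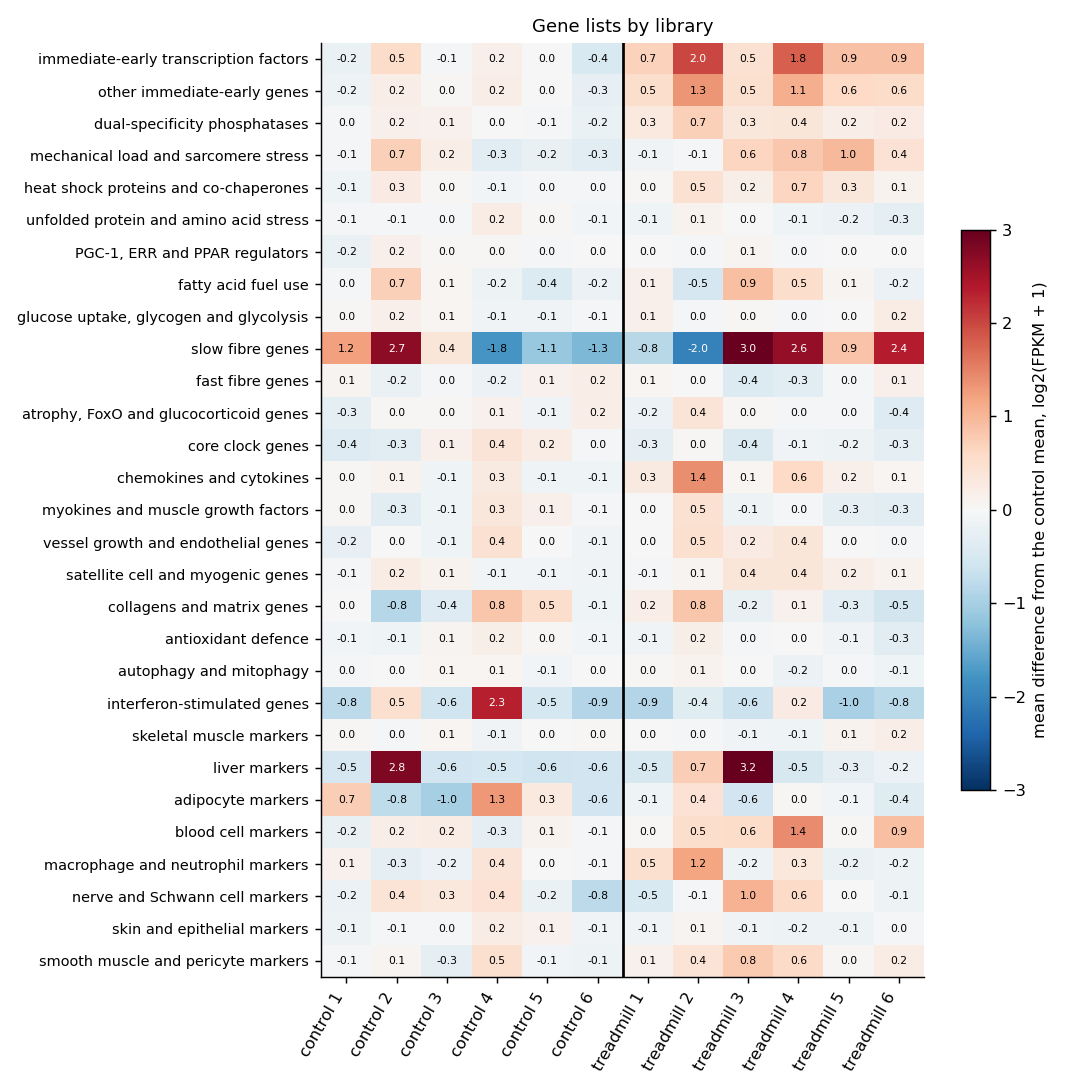
Mean difference of each list's tested members from the mean of the 6 control libraries, in log2(FPKM + 1), with 1 row per list and 1 column per library. The immediate-early transcription factors lie at 0.45 to 2.01 in treadmill libraries and at -0.45 to 0.54 in control libraries, while the interferon list stands out in control 4 (2.33) and the liver markers in control 2 (2.79) and treadmill 3 (3.21).

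The genes of fat handling that the study names for training were highest in the libraries with liver transcripts. Fabp1, the liver fatty acid binding protein, was at 25.5 FPKM in control 2 and 35.1 FPKM in treadmill 3, and at 0.0480 to 2.35 FPKM in the other 10 libraries. Apoc3, an apolipoprotein, was at 16.4 and 18.6 FPKM in the same 2 libraries and at 0 to 1.82 FPKM elsewhere. Slc27a2, a very long-chain acyl-CoA synthetase, was at 1.60 and 1.24 FPKM there and at 0 to 0.771 FPKM elsewhere. Log2 fold changes were 0.56 (SE 1.74) for Fabp1, 0.38 (SE 1.92) for Apoc3 and 0.27 (SE 1.56) for Slc27a2. Lpl, the lipoprotein lipase that muscle itself makes, was at 89.1 FPKM in control 2 and 88.1 FPKM in treadmill 3, and its log2 fold change was 0.18 (SE 0.35). With all libraries none of the 4 was a DEG. Fabp1 and Apoc3 were higher DEGs without control 2, and also without control 2 and treadmill 3, where edgeR put Fabp1 at 2.66 (SE 0.77, adjusted p = 0.432) and Apoc3 at 4.91 (SE 1.61, adjusted p = 0.517) on the log2 scale. Albumin, the defining liver transcript, was at 135 FPKM in control 2, 226 FPKM in treadmill 3 and 14.3 FPKM in treadmill 2. None of the 15 liver markers tested was a DEG with all libraries, 14 were higher DEGs without control 2, and 11 were without control 2 and treadmill 3 together. Adipocyte markers gave 1 DEG of 8, the adipokine Lep (-2.85, SE 1.27), and nerve markers and skin markers none of 7 and 4.

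Read through the KEGG annotation of the table, 5307 genes tested carried a pathway, and 131 of them were higher and 48 lower DEGs (3.37%). The IL-17 pathway had 14 higher DEGs and 1 lower DEG of 63 (23.8%), and the TNF pathway 13 and 1 of 93 (15.1%). Both share most of these genes with the lists above, Fos, Jun, Ccl2, Cxcl1, Cxcl2, Il6 and Il1b among them, and the higher DEGs numbered 7 in the IL-17 pathway without treadmill 4 and 8 in the TNF pathway without treadmill 2. The medians over their members were 0.06 and 0.02. The MAPK pathway had 20 higher DEGs and no lower one of 242, and cytokine-cytokine receptor interaction 12 and 3 of 137. Without treadmill 4 the MAPK pathway had 13 higher DEGs; cytokine-cytokine receptor interaction had 6 without treadmill 2, and no lower one without control 4. African trypanosomiasis (7 of 24) and malaria (9 of 36) had the highest shares of DEGs among pathways with at least 20 genes tested, 29.2% and 25.0%, and in both the DEGs included globin genes together with Il1b and Il6.

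With all libraries the pathways of energy supply held few DEGs, beside a share of 3.37% over all genes with a pathway. Oxidative phosphorylation had 2 higher DEGs of 126, LOC687508 and Cox7a1, and 104 of the 126 had positive values with a median of 0.16. The citrate cycle (28 genes), fatty acid degradation (38) and glycolysis (51) had none, and PPAR signalling had 1, the lower DEG Scd, of 65. Without control 2 PPAR signalling had 10 higher DEGs, the apolipoprotein genes Apoa1, Apoa2, Apoa5 and Apoc3 and Fabp1 among them, and without control 2 and treadmill 3 it had 4, Apoa2, Apoa5, Apoc3 and Fabp1. The proteasome had no DEG of 44, with 6 positive values and a median of -0.07. At an unadjusted p under 0.05 by edgeR, 8 proteasome genes were lower and 0 higher. In oxidative phosphorylation 9 were higher and 2 lower, and 3 had every treadmill library above every control library. Over all 5307 genes with a pathway 252 were higher and 270 lower, and 25 had every treadmill library above.

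The groups with catgut embedding were trained on the same schedule and are compared here with the same 6 control libraries, so their values are not independent of those above, and the named genes were chosen on the treadmill contrast. Arc averaged 13.6 ± 6.67 FPKM with treadmill alone, 14.8 ± 8.36 FPKM in catgut 1 and 16.4 ± 5.92 FPKM in catgut 2 (SD, n = 6). Ccn1 had 124 ± 42.2, 102 ± 38.0 and 117 ± 32.8 FPKM in the same order, and Egr3 3.24 ± 1.40, 1.90 ± 1.43 and 2.12 ± 0.775 FPKM. Rasl11a averaged 2.11 ± 0.348 FPKM with treadmill alone, 1.14 ± 0.486 in catgut 1, 1.09 ± 0.292 in catgut 2 and 0.992 ± 0.228 in control. Rhobtb1 averaged 8.03 ± 2.88, 13.4 ± 5.01, 13.9 ± 5.12 and 15.7 ± 4.67 FPKM in that order. Zfp503 had 4.0 ± 1.54, 9.42 ± 1.61, 8.53 ± 2.59 and 9.05 ± 4.05 FPKM in that order, and Per2 2.10 ± 0.907, 8.96 ± 2.53, 9.80 ± 2.27 and 5.76 ± 3.54 FPKM. Differences between the treadmill and catgut groups were not tested here.

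**Figure D5:**
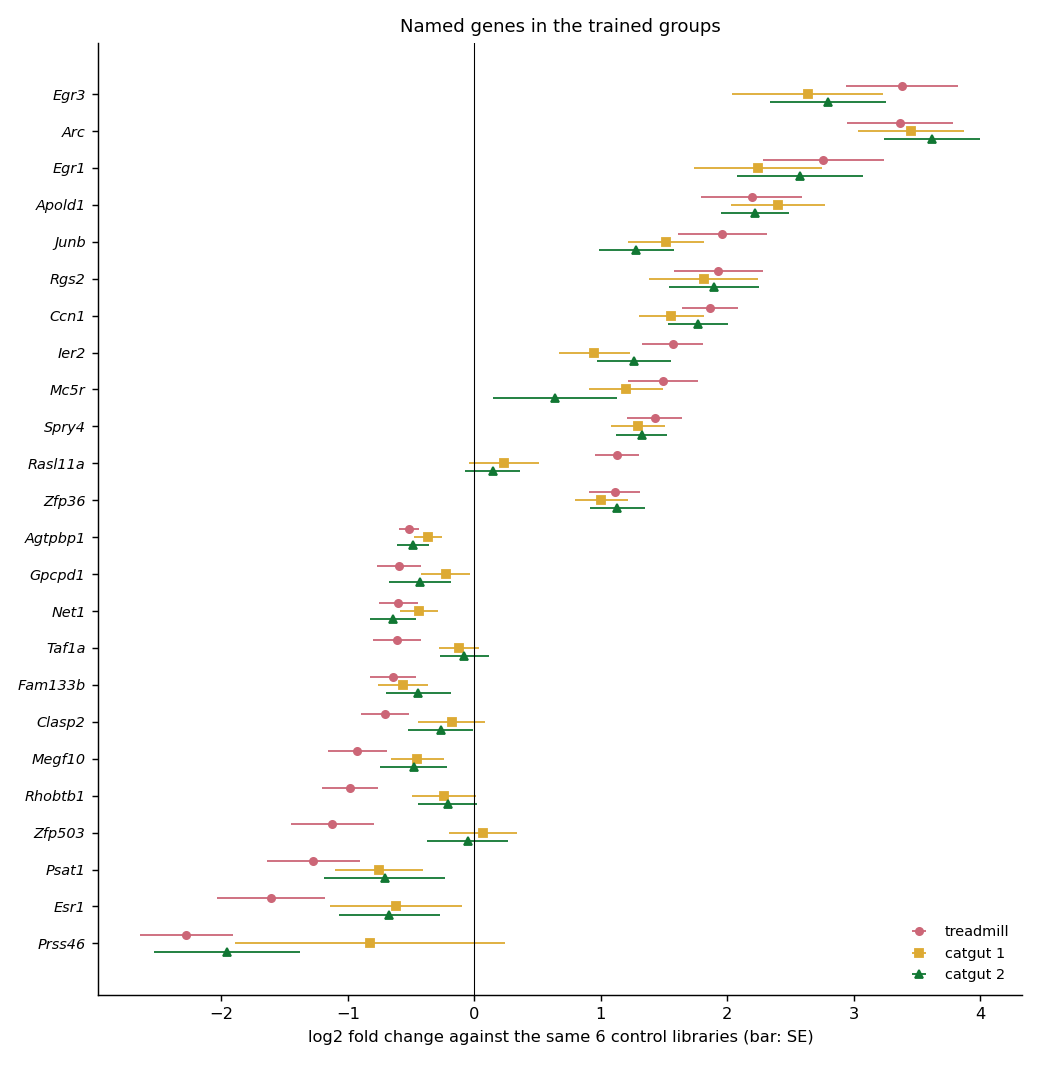
Log2 fold change with its SE (edgeR) of the named genes in the treadmill, catgut 1 and catgut 2 groups, each against the same 6 control libraries. The immediate-early genes Arc (3.36, 3.45 and 3.62) and Ccn1 (1.86, 1.56 and 1.77) lie to the right of 0 in all 3 groups, whereas Rasl11a (1.13, 0.24 and 0.15) and Zfp503 (-1.12, 0.07 and -0.05) have their values nearer 0 in the catgut groups; these differences were not tested.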

How the data were processed

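RNA of rat quadriceps (poly(A) selected, 1 library per rat by the study's methods) was sequenced in 24 libraries, of which the 6 control and 6 treadmill libraries were compared; groups came from the labels. Per the submitters' processing notes, HISAT2 2.0 aligned the reads and StringTie 1.3.0 assembled and quantified them; the genome build is not given in the sources used here. The deposited counts per gene were not normalized, and the deposited FPKM values were computed by the authors. The labels' extraction protocol mentions an adipose tissue although the tissue label is muscle.

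The 14772 of 21067 genes that averaged 0.1 FPKM or more across all 24 libraries were tested on the counts of the 12 libraries with edgeR 4.0.16 in R 4.3.3 (TMM, quasi-likelihood test, Benjamini-Hochberg adjustment over all genes tested, threshold 0.05). SE is the log2 fold change divided by the square root of F. The scripts were tested on simulated data. Single genes were also compared by the exact two-sided permutation test of log2(FPKM + 1) over all arrangements of the 12 libraries. Total counts per library were 57292580 to 78278080. At about 4 counts per fragment, the fragments that set the precision were fewer than these totals. No molecular identifiers are described, so limits of detection cover counting error only. Named genes were those with an adjusted p under 0.05, the 12 higher and 12 lower DEGs with the smallest p and a symbol, the members of gene lists, and genes the study names for the comparison. The comparison and lists were chosen with earlier results of these data known. Genes overlapping another or sharing reads with a close copy are uncertain, since the counting of such reads is not stated. Alternatives were DESeq2 1.42.0, limma 3.58.1 on log2 FPKM, other filters, median ratio scaling, a robust fit and a fit over all 4 groups. Others were a chromosome Y covariate, a liver marker covariate, a replicate block, counts divided by 4 and leaving out libraries. Promoters of RefSeq (GRCr8) were matched by symbol.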

Additional observations from a re-analysis of the deposited data

Results flagged for a closer look

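For 91 genes named or described here, each group of 6 libraries was searched for a library whose gap to the nearest other library was larger, relative to the group's range in log2(FPKM + 1), than Dixon's 95% critical value, which chance exceeds in about 1 of 20 groups. Of 182 groups searched 17 met it, 8 of them through control 2.

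Control 2 held 25.5 FPKM of Fabp1 (0.0480 to 0.219 in the other 5 control libraries), 16.4 FPKM of Apoc3 (0 to 0.0741), 1.60 FPKM of Slc27a2 (0 to 0.304), 135 FPKM of Alb (0 to 0.36) and 89.1 FPKM of Lpl (30.6 to 40.2). The same library held 50.5 FPKM of Btg2 (13.5 to 20.8), 2.35 FPKM of Nr4a2 (0.266 to 0.626) and 2.70 FPKM of Cxcl1 (0.457 to 1.03). Treadmill 3 held 35.1 FPKM of Fabp1 (0.163 to 2.35 in the other 5 treadmill libraries), 18.6 FPKM of Apoc3 (0 to 1.82) and 0.0477 FPKM of Phykpl (0 in the others).

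Treadmill 2 held 23.1 FPKM of Ccl7 (0.444 to 2.37) and 3.69 FPKM of Cxcl2 (0 to 0.6245). Control 4 held 9.82 FPKM of Cxcl10 (0.0638 to 0.553) and 3.20 FPKM of Thbs1 (0.624 to 1.22). Control 3 alone among control libraries held Cxcl2, at 0.0577 FPKM, and treadmill 5 held 0.136 FPKM of Lep (0 to 0.0366).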

How the results depend on the processing

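The count of adjusted p under 0.05 depended most on the tool and on single libraries: 8 became 113 with DESeq2 (85 higher, 28 lower, all 8 among them), 15 with all 4 groups in the fit, 5 with a chromosome Y covariate, 4 without the filter, and 0 (control 4 left out) to 12 (control 2 left out) with 1 library removed. Chosen after seeing the data, removing control 4 with treadmill 2 gave 0 (819 higher and 1042 lower at an unadjusted p under 0.05) and control 2 with treadmill 3 gave 15. The DEG count of 421 (262 higher, 159 lower) became 240 (162 and 78) with a filter at a mean of 1 FPKM and 791 (475 and 316) without the filter. With 1 library left out it was 366 (without treadmill 4) to 652 (without control 2), with 199 to 433 higher and 92 (without control 4) to 384 (without treadmill 2) lower; the higher share of DEGs, 62.2%, was 79.4% without control 4 and 38.9% without treadmill 2. With the replicate number as a block, 7 genes passed, only Ccn1, Arc and Spry4 of the 8 among them, and 352 were DEGs (233 higher, 119 lower). Same-numbered libraries correlated at -0.34 to 0.21, over 0.1 in 2 of 6 pairs. The labels give no pairing by number, and these correlations over all genes cannot exclude such a pairing. With the liver marker covariate 4 genes were higher and 2 lower at an adjusted p under 0.05 by edgeR. With counts divided by 4 these numbers were 6 and 2.

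Changes were counted over 91 of the genes named or described here and every alternative. Of their log2 fold changes 2165 kept direction and side of the threshold, and 87 lost and 76 gained an adjusted p under 0.05. Another 20 changed sign, all of genes that had not passed. Apart from leaving out 1 library, those were Pdk4 (0.13 with limma at both pseudocounts, 0.17 with the block, 0.042 without control 2 and treadmill 3), Fabp1 (-0.042 with the chromosome Y covariate), Hspa5 (0.021 without control 2 and treadmill 3) and Cxcl10 (0.37 without control 4 and treadmill 2). With 1 library left out the ranges crossing 0 were -0.26 to 0.24 for Pdk4, -0.079 to 0.0084 for Hspa5, -2.59 to 0.18 for Cxcl10, -0.062 to 0.52 for Lpl, -2.75 to 5.97 for Fabp1, -2.32 to 7.60 for Apoc3, -0.56 to 2.51 for Slc27a2 and -2.62 to 8.35 for Alb. Other than for a removed library, the cause was not tested. Depth limits genes at or under 12 counts, such as Il6 and Cxcl2 in control libraries.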
